A study of Mus musculus with 12 samples.

Results

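The plasminogen activator genes examined here were PLAU, PLAT, PLAUR, SERPINE2 and SERPINB2, chosen by symbol, with no threshold on their values. All 5 symbols were among the 23636 in the table of expression values, and 2 of the 5, PLAUR and PLAT, were expressed highly enough to be tested. CT26, a mouse colon carcinoma cell line, was grown in culture and left with no treatment, or treated with recombinant CX3CL1 (fractalkine, a chemokine) at 2 µg/ml, with the cytokine IFN-γ at 100 ng/ml, or with CX3CL1+IFN-γ. RNA was taken after 8 hours from 3 biological replicates of each of the 4 groups, which gave 12 libraries of this line alone. The values are TPM, transcript levels per length that add up to 1000000 in each library, so they can be compared between genes but carry no read depth.

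Plasmin, the main enzyme of fibrin breakdown, is made from plasminogen by the urokinase-type activator uPA (PLAU) and the tissue-type activator tPA (PLAT). PLAUR encodes uPAR, a receptor held in the membrane by a lipid anchor, which binds uPA and keeps its activity at the cell surface. The serpins PAI-2 (SERPINB2) and protease nexin-1 (SERPINE2) inhibit these enzymes. The system is known in tumors for breakdown of matrix, cell migration and release of growth factors.

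All 5 are protein-coding genes in GENCODE vM21, whose assembly GRCm38 is the same as mm10. Plaur lies on chromosome 7 from 24462484 to 24475968, Plat on chromosome 8 from 22757727 to 22782844, and Plau on chromosome 14 from 20836660 to 20843385, all on the forward strand. Serpinb2 lies on the forward strand of chromosome 1 from 107511423 to 107535478, and Serpine2 on the reverse strand of chromosome 1 from 79794197 to 79861180. RefSeq promoters on GRCm38.p6 were matched for Plaur, Serpine2 and Serpinb2, while Plau and Plat had no entry. The 250 bases before the start of Plaur, the member with the highest level, and before the first of the RefSeq starts of Serpinb2, a member near 0, are shown for contrast, with capitals marking matches to the motifs searched.
Plaur, chr7:24462233-24462482, forward strand: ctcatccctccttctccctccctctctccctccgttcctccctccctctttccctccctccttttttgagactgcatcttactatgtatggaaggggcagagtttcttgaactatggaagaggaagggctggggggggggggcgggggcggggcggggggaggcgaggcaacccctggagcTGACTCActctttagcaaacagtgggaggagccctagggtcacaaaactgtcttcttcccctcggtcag
Serpinb2, chr1:107511173-107511422, forward strand: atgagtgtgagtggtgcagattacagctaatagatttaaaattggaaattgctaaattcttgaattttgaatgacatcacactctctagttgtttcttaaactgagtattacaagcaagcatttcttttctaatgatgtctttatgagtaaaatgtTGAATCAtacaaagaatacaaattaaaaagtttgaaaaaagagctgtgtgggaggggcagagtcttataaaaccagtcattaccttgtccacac
The motifs were AP-1 (TGANTCA), the gamma-activated sequence GAS (TTC, any 3 bases, GAA), the interferon-stimulated response element ISRE (GAAA, any 2 bases, GAAA) and the kB consensus, on both strands. In Plaur the match was the AP-1 motif TGACTCA, from 69 to 63 bases before the start. In Serpinb2 it was the AP-1 motif TGAATCA, from 94 to 88 bases before the first start. The window of the second Serpinb2 start, which overlaps the first, held the same AP-1 match and a GAS match, and no matches overlapped each other. The window of Serpine2, with 78.8% G and C, held none of these letters. Of 32851 RefSeq windows of 250 bases, 6.75% held AP-1, 7.02% GAS, 2.98% ISRE and 7.25% the kB consensus. The matches describe sequence and were not tested as binding sites.

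Some facts of all libraries bear on every value. Of 7 epithelial markers only KRT18 reached 1 TPM and EPCAM was listed at 0 in all 12 libraries, whereas all 3 mesenchymal and all 4 fibroblast markers reached 1 TPM, so the colon carcinoma label did not come with an epithelial profile. No leukocyte or endothelial marker reached 1 TPM, and the highest value among them was 0.154 TPM, for CX3CR1, the receptor of CX3CL1. By flow cytometry, the study reported high CX3CR1 protein on CT26 cells, which RNA levels do not measure. CX3CL1 replicate 2 stood apart from its group: its values differed from those of replicates 1 and 3 by a median of 0.266 and 0.262 in log2(TPM + 1), and theirs from each other by 0.141. CX3CL1+IFN-γ replicate 1 (0.198 and 0.181, against 0.110 between replicates 2 and 3) and no treatment replicate 1 (0.186 and 0.170, against 0.121) were also farther from their groups. So was IFN-γ replicate 1 (0.144 and 0.146, against 0.0971). Differences were tested with limma on log2(TPM + 1) over 11878 genes, those whose mean reached 0.2 TPM, and a gene was called at an adjusted p under 0.05. With 3 libraries a group, the smallest p of an exact two-sided permutation test is 0.1. Every call thus depends on limma's model of the spread, which draws on all genes tested. Comparisons with the same untreated or treated libraries are not independent of each other.

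PLAUR was abundant and was higher in every treated group than without treatment, by a call in 2 of the 3 groups. It averaged 193 TPM over the 12 libraries, above the mean of 92.6% of the genes tested. The no treatment libraries held 154, 139 and 157 TPM of PLAUR (mean 150 ± 10, SD, n = 3). With CX3CL1, PLAUR stood at 226, 180 and 255 TPM (mean 221 ± 38, SD, n = 3). All 3 CX3CL1 libraries lay above all 3 untreated libraries, as they did for 5.5% of the genes tested, and CX3CL1 replicate 2 was the lowest of its group. With IFN-γ, the libraries held 194, 184 and 198 TPM (mean 192 ± 7.1, SD, n = 3), and with CX3CL1+IFN-γ they held 221, 198 and 209 TPM (mean 210 ± 12, SD, n = 3). Neither of these groups overlapped the untreated libraries, where 20.6% and 18.6% of the genes tested were likewise higher without overlap, and both lay within the wider range of the CX3CL1 libraries. In bulk libraries, more or fewer cells with the transcripts of a gene and more or less of its RNA per cell cannot be told apart.

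CX3CL1 raised PLAUR 1.47-fold over no treatment, a log2 fold change of 0.54 (SE 0.12, 95% interval 0.29 to 0.79, limma adjusted p = 0.0307). PLAUR was the only one of the 5 genes called in that comparison, where 1.78% of all genes tested were called higher and 0.168% lower. This call rested on few libraries. It held without CX3CL1 replicate 2 (limma adjusted p = 0.0024) and was lost without any other of the 6 libraries, with adjusted p up to 0.164. It was also lost with no filter on low TPM (adjusted p = 0.059), with quantile normalization (0.078) and when only the CX3CL1 and untreated libraries were fitted (0.173). The log2 fold change stayed positive, from 0.43 to 0.68, under all 14 alternatives.

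IFN-γ gave PLAUR a level 1.28 times that of untreated cells, a log2 fold change of 0.36 (SE 0.12, 95% interval 0.10 to 0.61) that was not called (limma adjusted p = 0.0878). Libraries with the same replicate number deviated together in these groups, and with the replicate number as a block PLAUR was called (adjusted p = 0.0203). That fit called 11.4% of all genes higher, against 5.91% without the block. PLAUR was also called when only the IFN-γ and untreated libraries were fitted (adjusted p = 0.024), and in none of the 6 fits without 1 library.

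With CX3CL1+IFN-γ, PLAUR rose 1.40-fold over no treatment, a log2 fold change of 0.48 (SE 0.12, 95% interval 0.23 to 0.73, limma adjusted p = 0.0162). In this comparison 8.21% of all genes tested were called higher and 3.72% lower, and both expressed genes, PLAUR and PLAT, were called. The PLAUR call was lost without CX3CL1+IFN-γ replicate 1 (adjusted p = 0.061), without CX3CL1+IFN-γ replicate 3 (0.058) and without no treatment replicate 2 (0.077), and held under the other alternatives.

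The treated groups did not differ in PLAUR by a call, and in the order of means no neighbours were told apart by a call. From high to low, that order was CX3CL1, the combination, IFN-γ alone and untreated cells. The combination (198.3 to 221 TPM) lay just above IFN-γ alone (184 to 197.9 TPM) without overlap, as it did for 8.54% of the genes tested. The log2 fold change of CX3CL1+IFN-γ was 0.12 against IFN-γ (95% interval -0.13 to 0.38, limma adjusted p = 0.975) and -0.06 against CX3CL1 (-0.31 to 0.19, adjusted p = 0.845), and that of IFN-γ against CX3CL1 was -0.18 (-0.44 to 0.07, adjusted p = 0.387). The interaction compares the effect of CX3CL1 in the presence of IFN-γ with its effect alone. For PLAUR it was -0.42 on the log2 scale (SE 0.17, 95% interval -0.78 to -0.06). Its unadjusted p of 0.026 gave an adjusted p of 1.00 in limma. No gene of the 11878 passed for the interaction, with 273 at an unadjusted p under 0.05, and 52 passed with the replicate block, PLAUR not among them (adjusted p = 0.458).

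**Figure D1:**
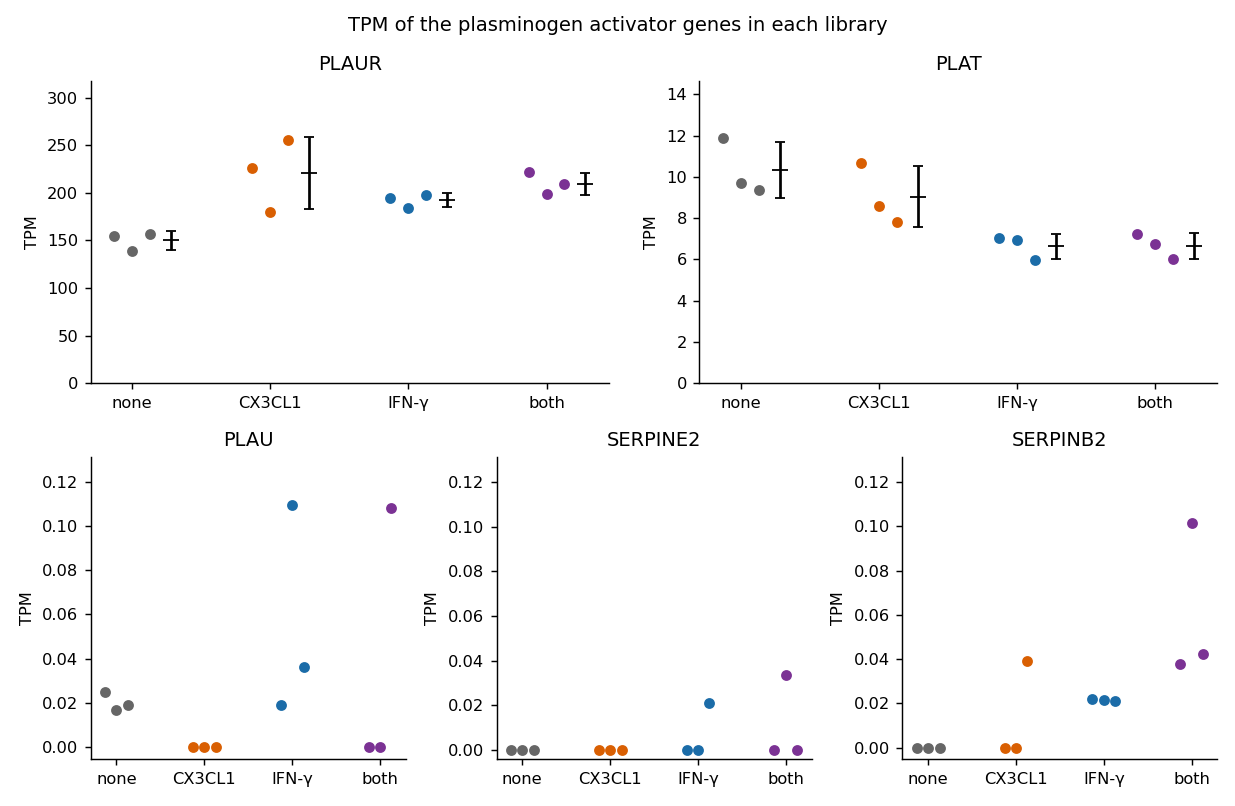
TPM in each of the 12 libraries (points, replicates 1 to 3 from left to right) of the 5 plasminogen activator genes, by group, where "both" is CX3CL1+IFN-γ. Black marks in the top row are means with SD (n = 3). PLAUR was lowest and PLAT highest without treatment. PLAU, SERPINE2 and SERPINB2, in the bottom row, were at or close to 0, with a highest value of 0.110 TPM.

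PLAT was expressed at a far lower level than PLAUR, and it fell in both groups that received IFN-γ. It averaged 8.17 TPM over the 12 libraries, above the mean of 27.6% of the genes tested. The untreated libraries held 11.9, 9.72 and 9.38 TPM of PLAT (mean 10.3 ± 1.4, SD, n = 3), and the CX3CL1 libraries 10.7, 8.57 and 7.84 TPM (mean 9.03 ± 1.5, SD, n = 3). These groups overlapped. With IFN-γ the libraries held 7.03, 6.95 and 5.95 TPM (mean 6.65 ± 0.60, SD, n = 3), and with CX3CL1+IFN-γ they held 7.21, 6.74 and 6.003 TPM (mean 6.65 ± 0.61, SD, n = 3). Both groups with IFN-γ lay below the untreated libraries without overlap. Against no treatment, 13.7% of the genes tested were lower without overlap with IFN-γ and 12.6% with CX3CL1+IFN-γ.

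CX3CL1 alone left PLAT without a call, at a log2 fold change of -0.18 (SE 0.13, 95% interval -0.47 to 0.11, limma adjusted p = 1.00). After IFN-γ, the mean of PLAT was 0.643 times that of untreated cells, a log2 fold change of -0.56 (SE 0.13, 95% interval -0.86 to -0.27, limma adjusted p = 0.0213). PLAT was the only one of the 5 genes called here without the block, in a comparison where 1.94% of all genes were called lower. After CX3CL1+IFN-γ the log2 fold change was again -0.56 (SE 0.13, 95% interval -0.86 to -0.27, limma adjusted p = 0.0145). The first call was lost without IFN-γ replicate 3 (adjusted p = 0.106) and without no treatment replicate 1 (0.077). The second was lost without CX3CL1+IFN-γ replicate 3 (0.076) and without no treatment replicate 1 (0.057), and both held under all 8 other alternatives.

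The combination was not told apart from IFN-γ alone in PLAT, with a log2 fold change of 0.00088 (95% interval -0.29 to 0.29, limma adjusted p = 0.999). Against CX3CL1, the log2 fold change of PLAT was -0.39 with IFN-γ (95% interval -0.68 to -0.09, adjusted p = 0.129) and -0.38 with CX3CL1+IFN-γ (-0.68 to -0.09, adjusted p = 0.141), without a call. These groups deviated together by replicate number, and with the replicate block both differences were called (adjusted p = 0.0147 and 0.0148), as they were after median-ratio scaling and quantile normalization. The interaction was 0.18 (95% interval -0.23 to 0.59, adjusted p = 1.00). Cell type markers moved over the same libraries. The summed level of the 4 fibroblast markers ran from 761 to 964 TPM without treatment and from 487 to 542 TPM with CX3CL1+IFN-γ. That of the 3 mesenchymal markers, most of it VIM, ran from 3959 to 5109.7 TPM and from 2067 to 3352 TPM in these groups. For the 7 epithelial markers, nearly all KRT18, the sum ran from 34.5 to 53.8 TPM and from 18.5 to 24.5 TPM. KRT18, VIM, COL1A1 and COL1A2 were called lower in that comparison, while CDH2 and FN1 were not called without the block. The VIM call held in 3 of 6 fits without 1 library, and those of KRT18, COL1A1 and COL1A2 in all 6. With CX3CL1 the fibroblast sum, most of it COL1A2, was 534 to 685 TPM and COL1A2 was called lower. This COL1A2 call held in 2 of 6 fits without 1 library. With IFN-γ the fibroblast sum was 642 to 743 TPM and the mesenchymal sum 2747 to 3782 TPM, below the untreated libraries. KRT18 was called lower with IFN-γ, a call that held in 1 of 6 such fits. PDGFRA, of the fibroblast list, had means of 3.68 TPM without treatment, 3.46 with CX3CL1, 5.997 with IFN-γ and 6.40 with CX3CL1+IFN-γ, and was called higher with the replicate block but not without it (for IFN-γ against no treatment, log2 fold change 0.54, limma adjusted p = 0.0394 with the block). The part of these markers in the PLAUR and PLAT results was not tested. The summed level of the 8 leukocyte markers was between 0.0711 and 0.352 TPM over all 12 libraries.

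**Figure D2:**
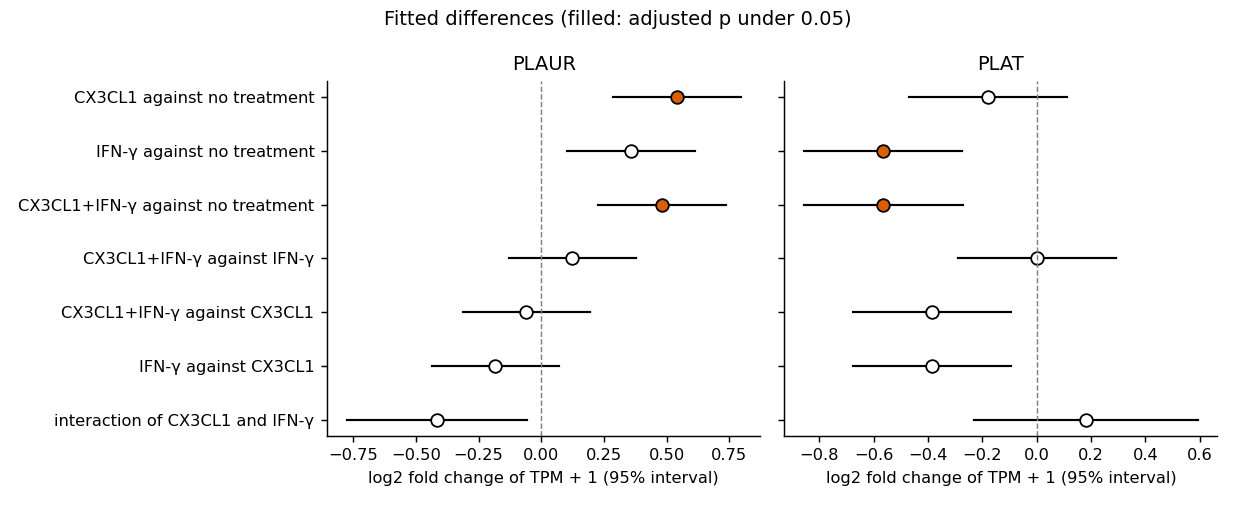
Log2 fold changes of TPM + 1 for PLAUR and PLAT in the 6 pairwise comparisons and the interaction, with 95% intervals from limma and filled points at an adjusted p under 0.05. PLAUR was above 0 in all 3 comparisons with no treatment and called in 2 of them, and PLAT was called below 0 in the 2 comparisons of IFN-γ and CX3CL1+IFN-γ with no treatment.

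**Figure D3:**
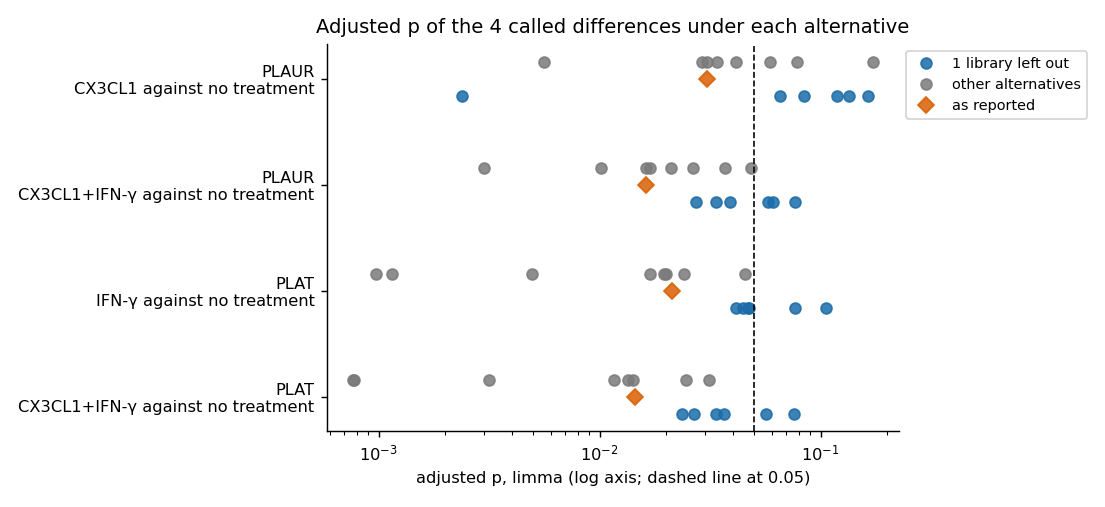
Limma adjusted p (log axis) of the 4 called differences as reported (diamonds), with 1 library left out (blue) and under the 8 other alternatives (grey), with a dashed line at 0.05. The call of PLAUR with CX3CL1 against no treatment stayed left of the line in 1 of its 6 blue points, and both PLAT calls did so in 4 of 6.

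PLAU, SERPINE2 and SERPINB2 were near or at 0 in all libraries and did not pass the filter of 0.2 TPM. PLAU, the urokinase that PLAUR binds, was listed at 0.0247, 0.0168 and 0.0187 TPM without treatment and at 0 in all 3 CX3CL1 libraries. It was listed at 0.0189, 0.110 and 0.0361 TPM with IFN-γ, and at 0, 0 and 0.108 TPM with CX3CL1+IFN-γ. Values above 0 were thus found in 7 libraries, with no group apart from the others except that the CX3CL1 libraries were all at 0. The receptor transcript was measured here almost without that of its ligand.

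SERPINB2 was listed at 0 in all 3 untreated libraries, and of the CX3CL1 libraries only replicate 3 was above 0, at 0.0393 TPM. With IFN-γ it was listed at 0.0221, 0.0213 and 0.0211 TPM, and with CX3CL1+IFN-γ at 0.0378, 0.101 and 0.0422 TPM. The libraries with IFN-γ alone were thus above 0 but below CX3CL1 replicate 3, and every value was under the filter of 0.2 TPM. Without the filter on low TPM, SERPINB2 was called in CX3CL1+IFN-γ against no treatment (log2 fold change 0.08, limma adjusted p = 0.0460) and in no other comparison with no treatment. SERPINE2 was above 0 in 2 libraries, IFN-γ replicate 3 at 0.0210 TPM and CX3CL1+IFN-γ replicate 2 at 0.0336 TPM. An exact 0 in TPM can be a failed estimate, and with the depth unknown no limit was set for what a 0 allows.

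The rest of the system was taken from a list of 43 genes by role, of which 24 were tested. CX3CL1 alone changed none of them by a call (0 of 24, limma). An unadjusted p under 0.05, which 8.07% of all genes tested had, was found for PROCR, TGFB1, MRC2 and ITGA3, and these 4 are named after their values were seen. IFN-γ raised F3 and SERPING1 and lowered ITGA3 and MRC2, which is 4 of 24, beside 5.91% of all genes called higher and 1.94% lower. With the replicate block the count was 14, 7 higher and 7 lower, where that fit called 11.4% of all genes higher and 4.85% lower. After median-ratio scaling or quantile normalization it was 2 higher and 4 lower. CX3CL1+IFN-γ raised 5 genes, F3, ITGA5, PROCR, SERPING1 and TGFB1, and lowered 5, ANXA2, F2R, ITGA3, LRP1 and MRC2, beside 8.21% and 3.72% of all genes. The median log2 fold change of the 24 genes was -0.04 with CX3CL1+IFN-γ, beside 0.02 over all genes tested.

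PLG, the plasminogen gene, reached at most 0.015 TPM. Of 3 tested activators of pro-uPA, the cathepsins CTSB and CTSL and factor XII (F12), none was called in these comparisons without the block. With the replicate block CTSB was called higher in IFN-γ against no treatment (log2 fold change 0.38, limma adjusted p = 0.019) and in IFN-γ and CX3CL1+IFN-γ against CX3CL1 (0.43 and 0.33, adjusted p = 0.0143 and 0.0467). ANXA2 and S100A10 together form a binding complex for plasminogen and tPA at the cell surface. ANXA2 had a mean of 2294 TPM without treatment and 1712 TPM with CX3CL1+IFN-γ (log2 fold change -0.43, limma adjusted p = 0.0419), a call that was lost in 5 of the 6 fits without 1 library, with no filter, with quantile normalization and with only the libraries compared. S100A10 had a mean of 1398 TPM with CX3CL1, 924 TPM with IFN-γ and 935 TPM with CX3CL1+IFN-γ, and was lower in both of the latter than with CX3CL1 (log2 fold changes -0.61 and -0.58, adjusted p = 0.0233 and 0.0268). Each S100A10 call held in 2 of 6 fits without 1 library. In those comparisons 1.06% and 0.935% of all genes tested were called lower. PLGRKT, a plasminogen receptor, had means of 61.2 TPM without treatment and 74.8 TPM with CX3CL1+IFN-γ and was not called without the block. ENO1 was listed at no more than 0.175 TPM while its near-identical copy ENO1B stood at 138 to 182 TPM, so its value is uncertain.

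Of 9 tested partners and clearance receptors of uPA and uPAR, 3 were called lower and 1 higher with CX3CL1+IFN-γ against no treatment. Over all genes tested, 3.72% were called lower and 8.21% higher. ITGA3, an integrin chain, went from 46.7, 51.6 and 47.7 TPM without treatment to 29.3, 34.7 and 30.9 TPM with CX3CL1+IFN-γ (log2 fold change -0.61, SE 0.09, limma adjusted p = 0.00061), and this call held in all 6 fits without 1 library. MRC2, an endocytic receptor for collagen that associates with uPAR, had 3.42, 3.06 and 2.89 TPM without treatment and 2.01, 1.88 and 2.01 TPM with CX3CL1+IFN-γ (log2 fold change -0.47, SE 0.11, adjusted p = 0.0104), which also held in all 6. Neither gene overlapped between these groups, where 12.6% of the genes tested were likewise lower without overlap. Their calls with IFN-γ alone (adjusted p = 0.0456 and 0.0481) were lost in all 6 such fits. LRP1, which takes up complexes of proteases and inhibitors, had means of 83.7 TPM without treatment and 52.3 TPM with CX3CL1+IFN-γ (log2 fold change -0.69, adjusted p = 0.0301), and its call held in 1 of 6 fits. ITGA5, another integrin chain, was higher (0.40, adjusted p = 0.0247), and held in 2 of 6.

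The clearest rise in the list was that of SERPING1, the C1 inhibitor, which acts on proteases of complement and of the contact system. SERPING1 was listed at 0.563, 0.203 and 0.403 TPM without treatment and at 0.404, 0.309 and 0.361 TPM with CX3CL1. With IFN-γ it stood at 5.74, 2.45 and 3.49 TPM, and with CX3CL1+IFN-γ at 6.32, 2.37 and 4.21 TPM. Both groups with IFN-γ lay above the untreated libraries without overlap. Against no treatment, 20.6% of the genes tested were higher without overlap with IFN-γ and 18.6% with CX3CL1+IFN-γ. The mean rose 9.99-fold with IFN-γ and 11.0-fold with CX3CL1+IFN-γ over no treatment, at log2 fold changes of 1.77 and 1.87 on the TPM + 1 scale (SE 0.26, limma adjusted p = 0.00085 and 0.00036). The calls held under all alternatives, as did those against CX3CL1.

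On the side of coagulation, F3, the tissue factor that starts it, had 31.4, 19.8 and 28.1 TPM without treatment and 57.4, 46.7 and 57.5 TPM with CX3CL1+IFN-γ (log2 fold change 1.02, SE 0.17, limma adjusted p = 0.0011). PROCR, a receptor for protein C, had means of 63.8 and 134 TPM in these groups (1.05, SE 0.25, adjusted p = 0.0144). Its call was lost without no treatment replicate 2 and without CX3CL1+IFN-γ replicate 1. F2R, the thrombin receptor PAR1, went the other way, from 136, 99.0 and 114 TPM to 62.1, 81.9 and 66.8 TPM (-0.71, SE 0.14, adjusted p = 0.0045). TGFB1, the gene of a latent growth factor that plasmin can release, rose from a mean of 29.5 to 57.8 TPM (0.92, SE 0.19, adjusted p = 0.0054). The calls of F3, F2R and TGFB1 in this comparison held in all 6 fits without 1 library. F3 was also higher with IFN-γ alone (0.67, adjusted p = 0.0277) and with CX3CL1+IFN-γ than with CX3CL1 (0.72, adjusted p = 0.0285), in 2 and 1 of 6 such fits.

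Addition of CX3CL1 to IFN-γ changed none of the 24 genes and neither PLAUR nor PLAT by a call, with or without the block, in a comparison where 0.362% of all genes were called. Against CX3CL1, 3 genes were called with CX3CL1+IFN-γ (F3 and SERPING1 higher, S100A10 lower) and 2 with IFN-γ (SERPING1 higher, S100A10 lower), where 3.76% and 3.52% of all genes were called higher. With the replicate block these counts were 7 and 8, and that fit called 8.71% of all genes higher and 2.81% lower with CX3CL1+IFN-γ, and 10.3% and 3.19% with IFN-γ. For 0 of the 24 the interaction was called, with or without the block.

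**Figure D4:**
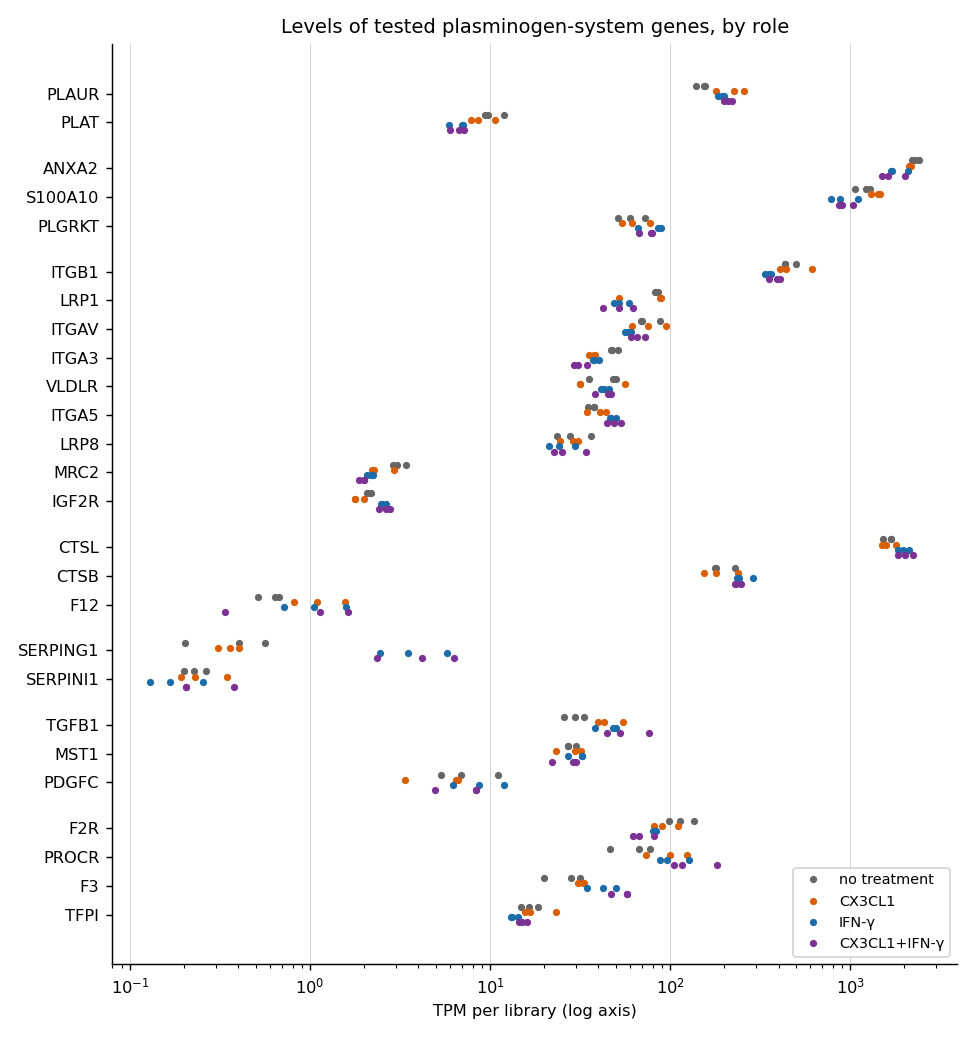
TPM per library (log axis) of PLAUR, PLAT and the 24 other tested genes of the plasminogen system, grouped by role from top to bottom, with 1 point per library in the color of its group. PLAUR stood between 139 and 255 TPM and PLAT between 5.95 and 11.9 TPM, below ANXA2 and S100A10 at the right. The points of SERPING1 in the groups with IFN-γ lie clear of the untreated libraries, from 2.37 to 6.32 TPM.

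**Figure D5:**
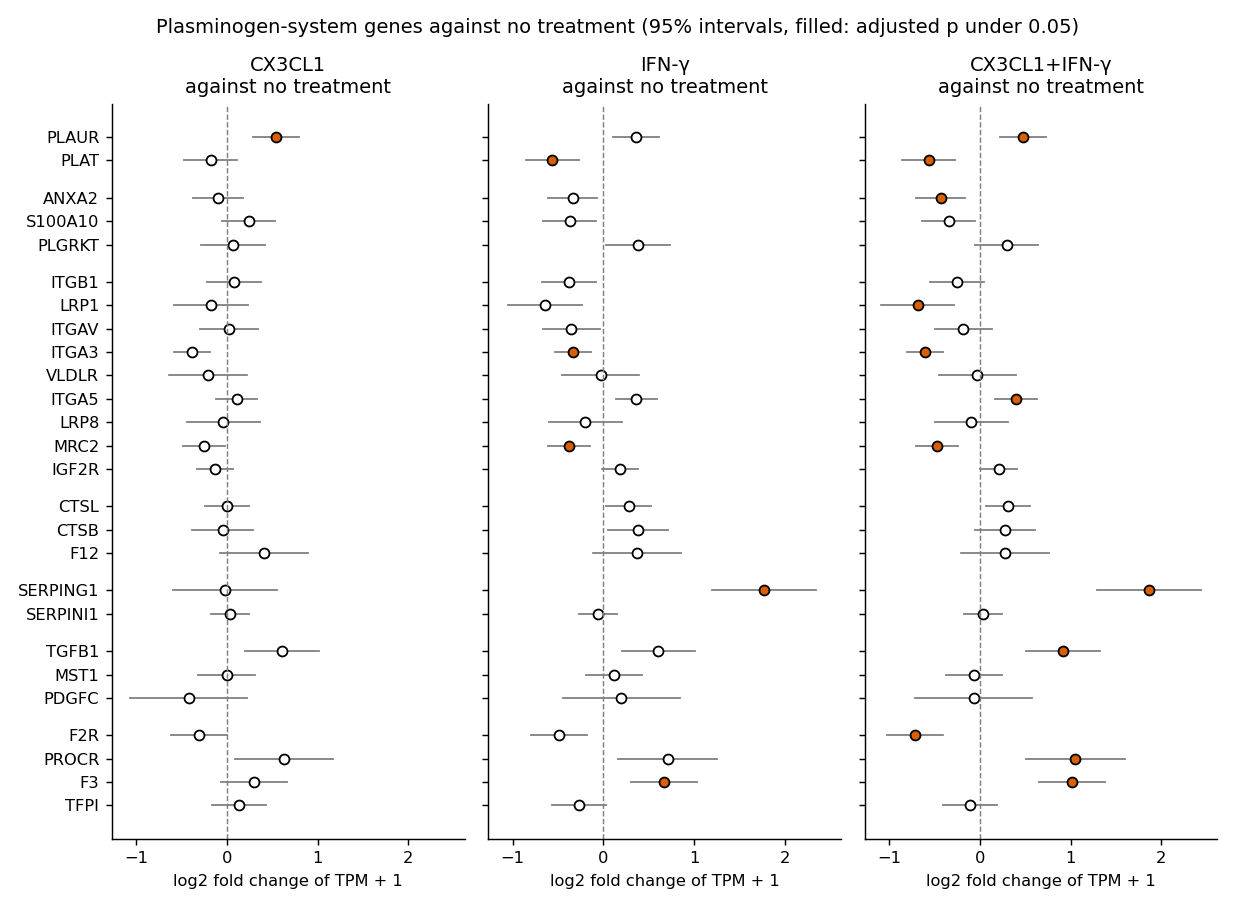
Log2 fold changes of TPM + 1 against no treatment for the same genes in the same order, with 95% intervals from limma and filled points at an adjusted p under 0.05. PLAUR is the only filled gene with CX3CL1, against 5 filled genes with IFN-γ and 12 with CX3CL1+IFN-γ, and SERPING1 has the largest value in both groups with IFN-γ.

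Serpins beyond SERPINE2 and SERPINB2 were also counted. Of 62 other symbols that start with SERPIN, 20 were tested, SERPING1 among them. None was called with CX3CL1 (limma), but this count depended on the processing. Quantile normalization gave 1 called higher, and so did median-ratio scaling, a pseudocount of 0.1 and the filter at 1 TPM. The replicate block gave 2 called higher, as did the fit without no treatment replicate 1. The count stayed at 0 with no filter, without the trend, with only the libraries compared and without any other library. With IFN-γ, 11 were called higher and 1 lower, beside 5.91% and 1.94% of all genes, and with CX3CL1+IFN-γ 14 were higher and 1 lower, beside 8.21% and 3.72%. SERPINA3F, SERPINA3G, SERPINA3H and SERPINB9G averaged under 0.2 TPM over the 6 libraries without IFN-γ, so they passed the filter only through the groups where they were high. Of the other 16, 8 were called higher with IFN-γ and 10 with CX3CL1+IFN-γ. When genes needed a mean of 1 TPM, these counts were 7 and 8 higher, from fewer genes tested. The lower gene in both was SERPINF1, which encodes PEDF, at 31.9 to 54.8 TPM in the untreated libraries and 14.3 to 22.8 TPM in those with IFN-γ (log2 fold change -1.32, limma adjusted p = 0.0051). SERPINB9, the granzyme B inhibitor, named after its values were seen, had means (± SD, n = 3) of 13.6 ± 4.4 TPM in untreated cells, 25.1 ± 2.3 TPM after CX3CL1, 49.7 ± 13.8 TPM after IFN-γ and 71.0 ± 14.6 TPM after the combination. Many of these higher genes belong to SERPINB9, SERPINB1 and SERPINA3 families with near-identical copies, so their values are uncertain.

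The genes whose levels were most like those of PLAUR over the 12 libraries were SEMA7A, a semaphorin with a lipid anchor, RGS16, a regulator of G protein signaling, and MIRT1, with Pearson correlations of log2(TPM + 1) of 0.942, 0.933 and 0.932. SEMA7A had means of 0.683 TPM without treatment, 1.33 with CX3CL1, with the other groups between them in the order seen for PLAUR. Most like PLAT were MGP, a matrix protein, PITPNC1, a lipid transfer protein, and PANK2, a kinase of coenzyme A synthesis, at 0.962, 0.953 and 0.948. MGP had means of 1.87 TPM without treatment, 1.15 with CX3CL1, 0.159 with IFN-γ and 0.129 with CX3CL1+IFN-γ, a wider range than that of PLAT. PLAUR and PLAT themselves had a correlation of -0.45. The libraries share 4 treatments, so these correlations describe the groups as much as the genes.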

How the data were processed

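The 12 CT26 libraries were sorted into 4 groups of 3 by their labels, while doses and time came from the study's methods and legends. The study's text also mentions TNF-α and describes CX3CL1 as given after these cytokines, whereas the labels name IFN-γ alone and give no order. Per the labels and methods, strand-specific mRNA libraries were prepared, reads were aligned to mm10 and counted by the authors with STAR 2.7.3a, and their counts were tested with DESeq2 1.22.1. The deposited values are TPM, which sum to 1000000 in each library. How counts became TPM and the gene annotation are not given in the sources used here, and the counts were not analysed here. Of 23636 symbols, 6747 were at 0 in every library, 10613 to 10824 per library had at least 1 TPM, and 26 had been turned into dates. The depth reached per library is unknown, so precision comes from the spread of 3 replicates, which may be partly technical. In none of the 66 pairs of libraries did a tested gene have the same value above 0 in both.

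Linear models were fitted to log2(TPM + 1) in limma 3.58.1 under R 4.3.3, with eBayes moderation that follows the intensity trend. Genes whose mean reached 0.2 TPM entered, together with all 12 libraries and no block. Adjustment was by Benjamini-Hochberg within each comparison, and 0.05 was the threshold. The script was checked on simulated data. Log2 fold changes on this scale understate changes of low genes. Every result was recomputed with the replicate number as a block, with each library left out, with quantile normalization or median-ratio scaling, without the trend, with no filter or one at 1 TPM, with a pseudocount of 0.1, and with only the libraries compared. One gene of the plasminogen-system list is not reported here. The members, lists and named genes were chosen with earlier results of these data known. Named genes are the 5 members, up to 10 called list genes by smallest adjusted p, genes of counts of 5 or fewer, and the 3 genes most like each expressed member. Python with pandas 2.3.3 prepared tables.

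The labels give groups the same replicate numbers, without saying what a number shares. Numbers were taken to pair groups where deviations from group means correlated above 0.1 across genes in all 3 pairs. This held for no treatment and IFN-γ (0.429, 0.460 and 0.220), CX3CL1 and IFN-γ (0.584, 0.361 and 0.226), CX3CL1 and CX3CL1+IFN-γ (0.351, 0.353 and 0.428), and IFN-γ and CX3CL1+IFN-γ (0.630, 0.635 and 0.649).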

Additional observations from a re-analysis of the deposited data

How the results depend on the processing

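For CX3CL1 against no treatment, the number of the 5 genes called went from 1 to 0 with no filter, quantile normalization and only the libraries compared, and ran from 0 to 1 over fits without 1 library. For IFN-γ against no treatment it went from 1 to 2 with the replicate block and with only the libraries compared (0 to 1 without 1 library). For CX3CL1+IFN-γ against no treatment it was 2, and 3 with no filter, where SERPINB2 was added (0 to 2 without 1 library, 0 without CX3CL1+IFN-γ replicate 3). For IFN-γ and CX3CL1+IFN-γ against CX3CL1 it went from 0 to 1 with median-ratio scaling, quantile normalization and the block. Directions of PLAUR and PLAT against no treatment were kept under all alternatives. In differences that were not called, PLAUR in CX3CL1+IFN-γ against CX3CL1 reversed to 0.052 without CX3CL1 replicate 3 (-0.20 to 0.052 over fits without 1 library), and PLAT in CX3CL1+IFN-γ against IFN-γ reversed to -0.066 without IFN-γ replicate 3, and to -0.052 and -0.0089 without CX3CL1+IFN-γ replicates 1 and 2 (-0.066 to 0.063). The causes were not tested.

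Of the 24 other genes, IFN-γ against no treatment called 4, with 2 under no filter, 7 with only the libraries compared, 14 with the block, and 1 to 3 without 1 library (1 without IFN-γ replicate 1 or 3 or no treatment replicate 3, and 2 without no treatment replicate 1 or 2). CX3CL1 against no treatment called 0, with 1 under no filter and 3 with the block (2 higher, 1 lower). That block fit called 2.92% of all genes higher and 0.909% lower. CX3CL1+IFN-γ against no treatment called 10 (6 to 9 without 1 library, with 6 without no treatment replicate 2). CX3CL1+IFN-γ against CX3CL1 called 3, with 7 under the block and 1 to 3 without 1 library (1 without CX3CL1 replicate 1 or 3 or CX3CL1+IFN-γ replicate 1 or 3). IFN-γ against CX3CL1 called 2, with 4 after median-ratio scaling (1 higher, 3 lower), 1 under no filter and with only the libraries compared, 8 with the block, and 1 to 3 without 1 library (1 without IFN-γ replicate 1 or 3).

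With the replicate number as a block, PLAUR was called in CX3CL1 against no treatment (limma adjusted p = 0.0056) and in CX3CL1+IFN-γ against no treatment (0.0030), and PLAT in IFN-γ against no treatment (0.0011) and CX3CL1+IFN-γ against no treatment (0.00077). The numbers were not taken to pair no treatment with CX3CL1 (0.387, 0.00472 and 0.301) or with CX3CL1+IFN-γ (0.312, 0.447 and 0.0324). There not all correlations were above 0.1, which does not show that the numbers share nothing. Beyond the calls given above, the block changed no other call of PLAUR or PLAT. Scaling moved the median of all genes by less than 0.1 on the log2 scale.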

Other observations

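The ratio of PLAUR to PLAT within a library, in TPM and without a test, ran from 12.97 to 16.7 without treatment and 21.0 to 32.6 with CX3CL1. It ran from 26.5 to 33.2 with IFN-γ and 29.4 to 34.8 with CX3CL1+IFN-γ. PLAUR alone already lay higher in every treated library than in any untreated one, and PLAT had lower means. The higher ratio restates these levels and is no separate result.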
